A study of Mus musculus with 10 samples.

Results

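Open chromatin that the authors' annotation places outside genes and promoters was followed in MC3T3-E1 cells, a pre-osteoblast line from mouse calvaria. The method was ATAC-seq, in which a transposase inserts sequencing adapters where DNA is accessible. The regions described are 2394 intergenic windows of one fixed length that lie within 50 kb of the nearest annotated transcription start and were found, at nearly the same position, in each of the peak lists of 4 culture conditions. The rule uses the positions and annotations of the windows in the authors' 4 lists and no level directly. It takes windows of the untreated list annotated as intergenic, no more than 50 kb from a start and not annotated as a repeat. Each needs a window in each of the other 3 lists starting within 62 bp. Being listed as a peak itself depends on signal. Windows missing from any list are left out by the rule, so sites gained or lost with a cytokine are not covered. They make up 16.3% of the 14722 windows that the 4 lists share by the same rule. The untreated list as a whole holds 26230 windows, of which 8342 are intergenic, 5521 of these lie within 50 kb and 4650 of those carry no repeat.

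All cells were placed in medium with 2.5% serum for 30 min. The untreated group (none) received no cytokine, the TNFa group TNFa at 10 ng/ml, the BMP4 group BMP4 at 10 ng/ml for 3 h, and the TNFa+BMP4 group both. Per the labels' protocols TNFa was given for 30 min before BMP4, whereas the sample labels of the TNFa and TNFa+BMP4 groups give 3 h. The sample titles of the TNFa group alone also carry the word p65, a subunit of NF-kB, without a stated reason. Each group has 2 libraries, all labelled batch 1, and the authors used 2 libraries of sonicated DNA as background. The labels do not say whether the libraries of a group are separate cultures, and a p-value here measures only the spread between libraries, which may be technical.

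TNFa is an inflammatory cytokine whose receptors release NF-kB dimers from their inhibitors, after which the dimers bind kB sites, many of them in enhancers far from promoters. BMP4 binds receptor kinases that phosphorylate SMAD proteins, which enter the nucleus with SMAD4 and act on genes such as the Id family, and it drives pre-osteoblasts towards bone-forming cells. Intergenic accessible sites near a gene are where such enhancers are commonly found, although the nearest gene is not always the one an enhancer acts on. Gene names below therefore say which annotated start is nearest and nothing more.

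The line's own markers were checked in the untreated list. Of 10 osteoblast markers 9 had a window and 5 a promoter window, among them Runx2, the master regulator of bone formation, and Col1a1, the main bone collagen, whereas Alpl, the alkaline phosphatase of bone, was nearest to none. Of the markers of other cell types, a window of any kind was found for 3 of 4 endothelium, 3 of 5 adipocyte, 2 of 4 chondrocyte, 1 of 5 haematopoietic and 0 of 3 muscle markers. Promoter windows among these were limited to Cebpa, an adipocyte factor, and Sox9, a cartilage factor.

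The members sat mostly upstream of their nearest start. A total of 1740 members (72.7%) were upstream and 654 downstream, the median absolute distance was 16041 bp, and the middle of the distribution ran from 6825 to 29018 bp. The nearest member lay at -1002 bp of Hcfc1, a cell-cycle cofactor gene, and the farthest at -49952 bp of Prtg, protogenin. They were nearest to 1632 genes, of which 514 had 2 or more members. For 1931 members the nearest start belonged to a protein-coding gene and for 430 to a non-coding RNA. Across lists the position was stable: 470 members had the same coordinates in all 4 lists, the median of the largest shift was 8.5 bp, and 2389 were annotated as intergenic in every list.

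A part of these intergenic windows touches genes of the RefSeq annotation (assembly GRCm38.p6, which uses the coordinates of the files' mm10 build). Some 659 members (27.5%) overlap a RefSeq gene: 368 a long non-coding RNA, 226 a protein-coding gene, 41 a tRNA gene and 24 another kind, which leaves 1735 in no RefSeq gene. Of all members, 49 reach into the 300 bases that RefSeq gives around a transcription start (250 before and 50 after), and 29 of them are covered over the whole window. For 3 of the 49 that start is the one of the nearest gene in the files. The other starts are those of predicted transcripts or of genes that the authors' annotation placed elsewhere. Sequence was read for these stretches alone, and no genome of this build was used here.

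The sequences that bear on the results below are printed on the plus strand, 5′ to 3′, from RefSeq GRCm38.p6. The first is shown because its window was among the 6 members of smallest p on the lower side with TNFa, the second because its BMP4 average effect was the most negative among windows covered in full (a choice made after its values were seen), the next pair because they hold an AP-1 match, and the last because it lies near Fosb, an AP-1 subunit gene. Capitals mark a motif match on either strand: CAGACA (the SMAD CAGA box) in the Phospho1 window, TGANTCA (AP-1) in the windows of Zmat3 and Jdp2, and TTGCNNAA (C/EBP) in the Fosb window.
Phospho1 window, start of Gm29933, chr11:95808555-95808621: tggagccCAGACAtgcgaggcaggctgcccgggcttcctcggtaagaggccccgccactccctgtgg
E2f6 window, start of Gm36495, chr12:16851021-16851145: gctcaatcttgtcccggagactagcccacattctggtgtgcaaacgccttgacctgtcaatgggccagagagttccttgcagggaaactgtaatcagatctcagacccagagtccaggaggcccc
Zmat3 window, start of Pik3ca, chr3:32396939-32397063: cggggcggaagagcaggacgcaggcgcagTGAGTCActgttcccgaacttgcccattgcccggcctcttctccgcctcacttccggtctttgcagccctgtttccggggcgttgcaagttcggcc
Jdp2 window, start of Gm32348, chr12:85569833-85569873: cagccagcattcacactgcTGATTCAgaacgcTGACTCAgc
Fosb window, start of Gm26802, chr7:19300796-19300920: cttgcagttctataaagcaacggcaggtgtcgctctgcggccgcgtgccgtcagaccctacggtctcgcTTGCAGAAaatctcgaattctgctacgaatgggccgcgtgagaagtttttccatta

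Among the 29 fully covered members, searched on both strands, an AP-1 match (TGANTCA) was found in 1 (3.45%), a RUNX match (TGTGGTT) in 1 (3.45%), a C/EBP match (TTGCNNAA) in 2 (6.90%) and a SMAD GC box (GGCGCC) in 4 (13.8%). The same letters were found in 2.16%, 1.10%, 2.67% and 11.5% of 3104 matched promoter windows that RefSeq covers in full. The kB site (GGANTTNCC), the CRE (TGACGTCA), the TEAD site (ACATTCC), the CAGA box, CTCF, the full NF-I site and the CArG box had no match in these 29, against 1.80%, 3.51%, 1.10%, 4.8%, 0.902%, 0.0322% and 0.580% of the promoter windows. The median GC content was 55.2% in the covered members and 64.8% in the covered promoter windows, and a motif match is a description of letters, not of a bound factor.

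The replicates differed in each of the AP-1 and Fosb windows just printed. In the order none, TNFa, BMP4 and TNFa+BMP4, the Zmat3 window gave levels (CPM, tags in a window per M tags in the tested windows, M being the SI mega) of 23.5 and 74.1, 18.5 and 56.7, 15.6 and 102, and 17.8 and 29.1, higher in the second library each time. The Jdp2 window gave 19.3 and 13.7, 25.2 and 11.8, 54.5 and 11.8, and 35.6 and 13.4, lower in the second library each time. The Fosb window gave 12.6 and 9.36, 69 and 5.91, 97.8 and 15, and 83.5 and 13.4, again lower in the second library of every group.

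Levels are given as CPM, the tags in a window per M tags in the tested windows after scaling of the libraries to one another, and since every window has the same length they can be compared between windows. The libraries hold between 16.5 and 30.1 M tags, and 3.56% to 5.74% of these fall in the tested windows. The 4 libraries with TNFa (16.5 to 21.8 M) are all shallower than the 4 without it (26 to 30.1 M), so depth moves with TNFa throughout. A typical member had a median of 23 tags in the shallowest library and 66 in the second BMP4 library. The members took 15.1% to 15.7% of the tags in tested windows in every library, with no order by treatment.

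Among the 2392 members with enough tags to be tested, the median level over the 8 libraries was 44.4 and the middle of the distribution ran from 26.1 to 80.5. Promoter windows had a median of 57.0, intronic windows 43.8 and intergenic windows beyond 50 kb 37.8. In the authors' deposited table of the untreated list the median log2 fold over sonicated DNA was 4.03 for members, 3.73 for promoter windows and 4.38 for intergenic windows beyond 50 kb. Within the members, level hardly moved with distance: the median was 42.4 under 2000 bp from a start, 47.5 from there to 10000 bp, 44.7 up to 20000 bp and 42.3 beyond.

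The 10 highest members were led by a window at -9500 bp of Hils1, a sperm-specific linker histone gene, with 544 and 711 in the untreated libraries, 611 and 656 under TNFa, 554 and 609 under BMP4, and 518 and 717 under both. Its TNFa average effect was 0.05 ± 0.24 (log2, SE) and its BMP4 average effect -0.08 ± 0.24. Next came a window at -1301 bp of Neat1, the RNA scaffold of paraspeckles, with a level of 478, and one at -26538 bp of Scd2, a fatty acid desaturase, with 465. The others lay near Gramd2, Ier3 (a stress-induced survival gene), Kctd15, Eif2b2, Gm19276, A730013G03Rik and Nr4a3 (a nuclear receptor of the immediate early class), with levels from 362 to 426. The libraries of these groups overlapped for the Hils1 window.

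Replicate number separated the libraries more often than either cytokine did, and this stands beside every result below. In 247 members (10.3%) all 4 second replicates were higher than all 4 first replicates, against a background of 10.0% of all 14712 tested windows, and in 276 (11.5%) they were all lower, against 11.4%. A window at -6162 bp of Vdr, the vitamin D receptor gene, gave 79.8 and 507 in the untreated libraries, 42.1 and 263 under TNFa, 87.8 and 470 under BMP4, and 86.3 and 73.9 under both. It was higher in the second library of 3 groups and lower in that of TNFa+BMP4.

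No member passed an adjusted p of 0.05 in any of 8 comparisons by limma with group as the only term, and neither did any other of the 14712 windows (background 0.0%). The count with voom weights was also 0. The smallest adjusted p among members was 0.856 for the TNFa average effect, which is the mean of TNFa minus none and TNFa+BMP4 minus BMP4. The values that follow are therefore differences with their standard errors, and none is a called change in this fit. A fit with the replicate number as a further term changed the count for the TNFa average effect and is given with the other alternatives.

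Unadjusted p under 0.05 gives a looser count. For the TNFa average effect it held for 163 members (6.81%), 64 higher and 99 lower, against a background of 4.39% of all tested windows. The share was 0.769% in promoter windows, 7.02% in intronic windows and 8.94% in intergenic windows beyond 50 kb, so the members stood among the other windows outside promoters. For the BMP4 average effect it held for 51 members (2.13%), 31 higher and 20 lower, against 1.11%. In the comparison of TNFa with none it held for 40 members (1.67%, background 1.02%), in BMP4 against none for 13 (0.543%, background 0.197%) and in TNFa+BMP4 against none for 81 (3.39%, background 2.54%). With one cytokine already present it held for 12 members when BMP4 was added to TNFa (0.502%, background 0.279%) and for 56 when TNFa was added to BMP4 (2.34%, background 1.62%). The interaction of both cytokines gave 0 members, against a background of 0.0%. With no change anywhere, calibrated p-values would fall under 0.05 in a share of windows equal to that threshold. Every background share given here lies below it, so these p-values are conservative. Differences between replicate numbers count as spread in this fit. A count of 0 or a low count therefore does not show that an effect is absent.

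The shares of members above 0 stayed near the middle. For the TNFa average effect 48.5% of members and 49.6% of all windows were above 0, with medians of -0.02 and -0.00 on the log2 scale. For the BMP4 average effect the shares were 48.7% and 49.3% and both medians -0.01. Scaling by the total tags of each library instead moved the median of all windows for the TNFa average effect to -0.15, and the share of members above 0 to 38.4%. Changes with TNFa are given relative to the other tested windows throughout.

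A count that needs no model was made as well. All 4 libraries with TNFa were higher than all 4 without it in 66 members (2.76%), against a background of 1.80%, and all 4 were lower in 96 (4.01%), against 2.63%. Promoter windows gave 0.769% and 0.535%, intronic windows 2.29% and 4.12%, and intergenic windows beyond 50 kb 2.98% and 4.82%. After thinning every library to the depth of the shallowest the members gave 67 higher and 87 lower. For BMP4 the counts were 28 members higher (1.17%, background 0.761%) and 40 lower (1.67%, background 0.877%), and with scaling by total tags they became 52 higher and 13 lower, so the split by direction depends on the scaling. The members without overlap for TNFa were nearest to 155 genes and those for BMP4 to 65.

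**Figure D1:**
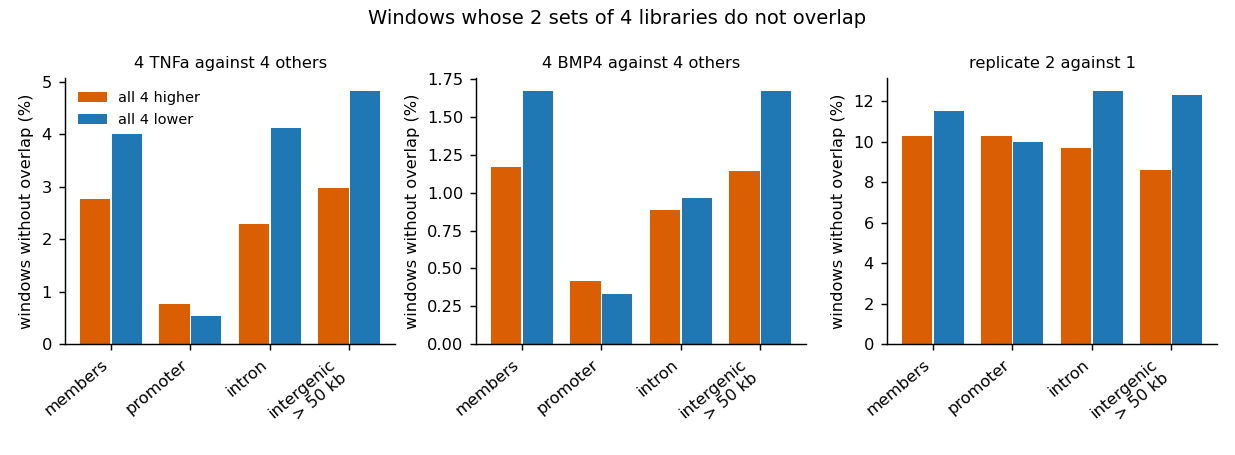
Share of tested windows (%) in which 4 libraries were all higher (orange) or all lower (blue) than the other 4, for TNFa, BMP4 and replicate number, in members, promoter, intron and distal intergenic windows; each panel has its own axis from 0. Members stood at 2.76% and 4.01% for TNFa and promoter windows at 0.769% and 0.535%, while replicate number separated 8.59% to 12.5% of each class in each direction.

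With TNFa, the member with the smallest p lay at -11320 bp of Pdgfb, which encodes the B chain of platelet-derived growth factor, a mitogen of mesenchymal cells (chr15:80026235-80026359, in no RefSeq gene). It gave 27.7 and 30.9 in the untreated libraries and 37.8 and 20.6 with BMP4, against 222 and 126 with TNFa and 216 and 178 with TNFa+BMP4. All 4 libraries with TNFa were above all 4 without it, and the TNFa average effect was 2.58 ± 0.40 (log2, SE, adjusted p = 0.856 by limma). In the authors' deposited table its log2 fold over sonicated DNA was 2.58 in the untreated list, 2.53 in the BMP4 list, 5.30 in the TNFa list and 5.52 in the TNFa+BMP4 list.

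A pair of neighbouring windows near Gdnf, which encodes a neurotrophic factor, gave similar values. The one at 23055 bp downstream gave 37.8 and 30.9 untreated, 30.0 and 26.2 under BMP4, 141 and 89.8 under TNFa, and 138 and 95.1 under both. The one at 23560 bp gave 17.6 and 11.5, 24.5 and 8.73, 90.9 and 46.1, and 69.4 or more in both libraries with TNFa+BMP4. Neither overlapped between TNFa and no TNFa, with average effects of 1.81 ± 0.37 and 2.26 ± 0.46, whereas the promoter window at -58 bp of Gdnf gave 0.14 ± 0.35.

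Another pair lay at -49102 and -49446 bp of Rassf6, a Ras-association gene linked to apoptosis. The first gave 11.8 and 5.76 untreated, 11.1 and 4.37 under BMP4, 50.5 and 28.4 under TNFa, and 43.8 and 44.8 under both, an average effect of 2.14 ± 0.41. The window at -6822 bp of Slc34a2, a sodium-phosphate cotransporter gene, gave 48.7 and 33.8, 32.2 and 20, 108 and 133, and 104 and 132 in that order, an average effect of 1.82 ± 0.37. The window at 16157 bp of Llph had an average effect of 2.11 ± 0.44, and its 4 TNFa libraries (111 to 170) were above the others (15.6 to 52.1). None of these groups of 4 libraries overlapped.

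The 6 members of smallest p on the lower side with TNFa, which is not an order by size, lay near March6, D630045J12Rik, BC016548, Phospho1, Aldh1a3 and Kcna6. The window at -5200 bp of March6, a ubiquitin ligase gene of the endoplasmic reticulum, gave 54.6 and 91.4 untreated, 37.8 and 102 under BMP4, 13.5 and 21.3 under TNFa, and 8.22 and 19.0 under both, an average effect of -2.03 ± 0.47. Phospho1 encodes a phosphatase that releases phosphate for bone mineral. The window at -15941 bp of it, whose sequence with the CAGA box is printed above, gave 106 and 138, 121 and 214, 47.1 and 42.5, and 56.1 and 34.7 in that order, an average effect of -1.61 ± 0.39. Aldh1a3 makes retinoic acid, and the window at -11504 bp of it gave 59.6 and 55.4, 80.1 and 48.6, 18.5 and 20.1, and 26 and 13.4, an average effect of -1.55 ± 0.38. The remaining 3 had average effects from -1.99 to -1.48, and none of the 6 overlapped between the libraries with and without TNFa.

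**Figure D2:**
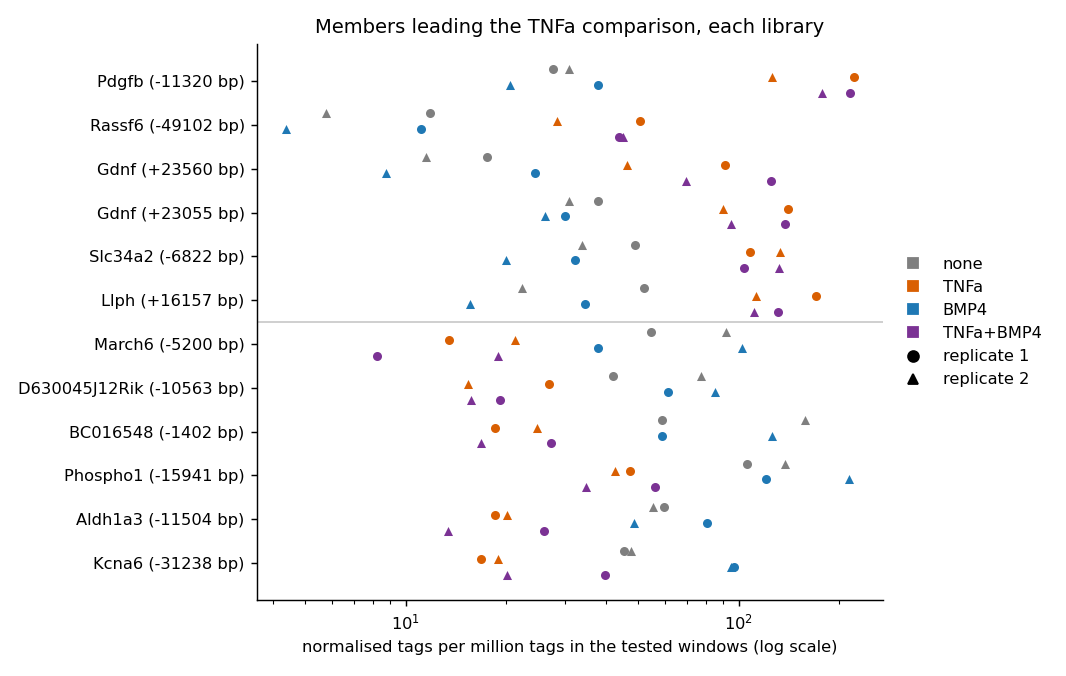
Level in CPM (log axis) in each of the 8 libraries for the 6 members of smallest p on the higher side (above the line) and the 6 on the lower side (below it) with TNFa; colours are the groups and symbols the replicates. Orange and purple points lie right of grey and blue ones for the upper 6 and left of them for the lower 6, as in the Pdgfb window, where they run from 126 to 222 against 20.6 to 37.8.

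Compared with none alone, TNFa also gave high values at -2492 bp of Ccl2, a chemokine that draws monocytes (chr11:82033023-82033147). The libraries gave 16.8 and 35.3 untreated, 16.7 and 26.8 under BMP4, 85.8 and 172 under TNFa, and 60.3 and 107 under both, a difference of 2.22 ± 0.63 between TNFa and none. A second member at -23633 bp of Ccl2 gave 102 and 42.5, 64.5 and 35.5, 271 and 136, and 223 and 142 in the same order. Both sets of TNFa libraries stood above the others, while the promoter window of Ccl2 at -25 bp had an average effect of 0.30 ± 0.57. The lower side of that comparison held windows near 4930447M23Rik (-2.27 ± 0.77) and Dhrs3 (a retinal reductase gene, -1.67 ± 0.60) beside those already named. The 4930447M23Rik window gave 30.2 and 51.1 untreated, 21.1 and 17.5 under BMP4, 1.68 and 17.7 under TNFa, and 5.48 and 8.95 under both. Its TNFa libraries overlapped the others, and the first TNFa library held 1 tag there.

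The TNFa difference was similar in direction with and without BMP4. Over the 2392 members, TNFa minus none and TNFa+BMP4 minus BMP4, which share no library, had the same sign in 78.1% of members with a Pearson r of 0.79, given as a description across windows that share the 8 libraries and their depths. Over all 14712 windows the values were 77.6% and 0.77. The corresponding values for BMP4 without and with TNFa were 71.5% and 0.65 in members and 71.3% and 0.62 in all windows. The added lower values with TNFa on top of BMP4 included a window at -44399 bp of Zbtb7c, which gave 167 and 89.2 with BMP4 and 39.7 and 15.7 with both, and one at -4619 bp of Kctd14, which gave 112 and 119 against 37.0 and 31.3.

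**Figure D3:**
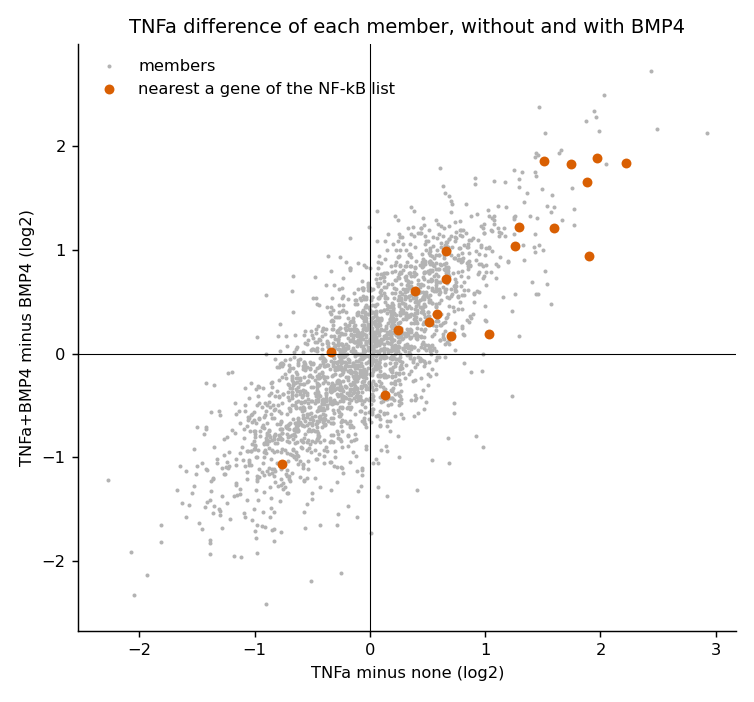
Each point is 1 of 2392 members: log2 difference TNFa minus none (horizontal axis) against TNFa+BMP4 minus BMP4 (vertical axis), with the 20 members nearest a gene of the NF-kB list in orange. The members run along the diagonal (r = 0.79), and 17 of the 20 orange members have an average effect above 0.

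The NF-kB list, whose 46 genes include chemokines, cytokines and the pathway's own inhibitors, had 20 members at 11 genes. The TNFa average effect was above 0 in 17 of them, with a median of 0.76 beside -0.02 over all members and -0.00 over all windows. Unadjusted p was under 0.05 for 8 higher and 0 lower, no member passed the adjusted test, and 6 had 4 TNFa libraries above the others. Over all tested windows the shares were 4.39% for p in either direction and 1.80% for all TNFa libraries higher. The median ran from 0.65 to 0.97 when each library was left out in turn, and was 0.48 for windows matched within 31 bp. The BMP4 average effect of the same 20 had a median of -0.02, with 9 above 0.

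Among effectors of that list, windows at 41959 and 42431 bp of Lif, a cytokine of the interleukin-6 family, had TNFa average effects of 1.41 ± 0.43 and 1.93 ± 0.55. The second gave 40.3 and 23.7 untreated, 182 and 89.8 under TNFa, 96.7 and 20 under BMP4, and 192 and 151 under both, so a BMP4 library lay above the lower TNFa library. The window at -4347 bp of Ccl5, another chemokine gene, gave 46.2 and 64.8, 103 and 183, 32.2 and 54.9, and 86.3 and 119 in that order, without overlap. At -14557 bp of Cxcl1, a neutrophil chemokine gene, the replicates differed more than the treatments: 21.8 and 7.92, 99.3 and 30.7, 100 and 6.86, and 98.6 and 31.3.

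Among inhibitors, Nfkbia, which encodes the inhibitor that holds NF-kB in the cytoplasm, had 4 members from 26167 to 45793 bp with TNFa average effects of 0.61, 1.77, 1.78 and 0.40. The window at 27682 bp gave 46.2 and 17.3 untreated, 126 and 96.9 under TNFa, 58.9 and 12.5 under BMP4, and 105 and 79.5 under both. Its TNFa libraries stood apart, whereas those of the window at 28085 bp (50.8 to 194 with TNFa, 8.11 to 102 without) overlapped. Tnfaip3, the ubiquitin-editing enzyme A20, had 1 member at -30792 bp that gave 21.8 to 25.9 without TNFa and 27.4 to 29.1 with it, an average effect of 0.24 ± 0.32. Cd44, a hyaluronan receptor gene, had 3 members from -43620 to -42502 bp with TNFa average effects of -0.91, 0.48 and -0.14.

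Growth factor and receptor genes had 6 members, all 6 above 0 for TNFa, with a median of 0.53. Pdgfb led them, and a window at -4216 bp of Spred2, an inhibitor of MAP kinase signalling, gave 126 and 92.1 untreated, 141 and 81.1 under BMP4, 215 and 181 under TNFa, and 211 and 191 under both. In the TGF-beta list, 5 members gave a median of 0.36, and the window at -1242 bp of Skil, a SMAD corepressor gene, gave 25.2 and 3.6, 38.9 and 6.24, 55.5 and 43.7, and 53.4 and 73.9 in that order. Both windows showed no overlap between TNFa and no TNFa. Interferon response genes had 11 members at 4 genes with a median of 0.28, 7 of them above 0. Of these members 8 were windows of Socs3, 5 of them above 0.

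Members nearest to genes of the bone and matrix lists had TNFa medians below 0. The osteoblast list had 20 members, 4 of them above 0 for TNFa with a median of -0.25, and no unadjusted p under 0.05. The matrix, integrin and protease list had 34 members, 15 above 0, with a median of -0.15. Over all members 48.5% were above 0. Promoter windows of the osteoblast and matrix lists had TNFa medians of -0.05 and 0.18. The window at -40858 bp of Myh9, a non-muscle myosin gene, was the only one of the 34 with all TNFa libraries lower. That share was 2.63% over all tested windows and 4.01% over members. The Myh9 window gave 54.6 and 107 untreated, 47.8 and 110 under BMP4, 38.7 and 46.1 under TNFa, and 32.9 and 29.1 under both. AP-1 and immediate early genes had 35 members, 17 above 0, with a median of -0.00, and the housekeeping control 11 members, 6 above 0, with a median of 0.15. Cell death inhibitors (6 members) and effectors (4) had medians of 0.12 and -0.07, and skeletal patterning factors (7) 0.07. Marker lists of other cell types held few members: 2 for adipocytes, 1 for chondrocytes, 2 for haematopoietic cells and 0 for muscle or endothelium.

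**Figure D4:**
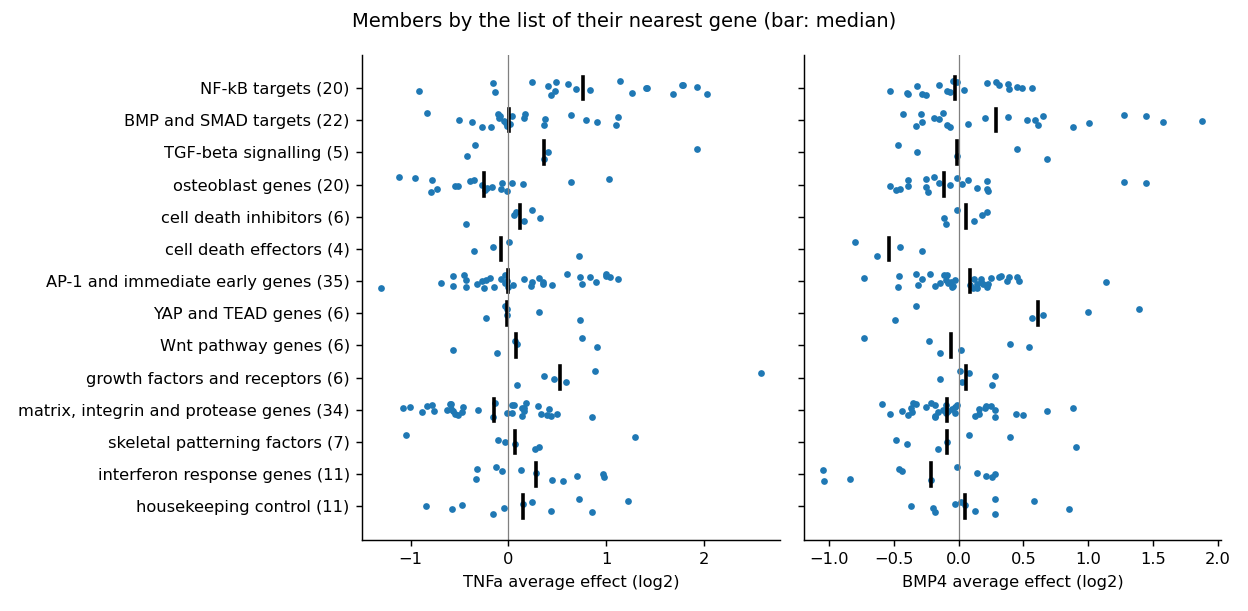
TNFa (left) and BMP4 (right) average effect on the log2 scale for each member, by the list of its nearest gene; points are members, black bars medians, and numbers in brackets the members of lists with at least 4. The NF-kB list has the highest TNFa median (0.76). For BMP4 the YAP and TEAD list (6 members at 4 genes) stands at 0.61 and the BMP and SMAD list at 0.29. In the YAP and TEAD list the Ankrd1 and Lats2 windows had negative BMP4 values.

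With BMP4, the member with the smallest p lay 38782 bp from A730020M07Rik, a non-coding RNA (chr3:121604641-121604765). It gave 63.0 and 57.6 untreated and 85.8 and 70.9 with TNFa, against 258 and 173 with BMP4 and 299 and 199 with TNFa+BMP4. The BMP4 libraries stood clear of the others, with an average effect of 1.70 ± 0.36 (adjusted p = 1.0 by limma). The promoter window of that gene at -482 bp gave -0.52 ± 0.54.

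Windows near Sem1, Marc1, B930092H01Rik and Mir8115 followed. Sem1 encodes a small proteasome subunit, and the window at 34646 bp of it gave 13.4 and 32.4 untreated, 10.1 and 7.09 under TNFa, 71.2 and 94.8 under BMP4, and 38.3 and 26.9 under both. Marc1, a mitochondrial reductase gene, had a window at 29768 bp with 31.1 and 11.5, 16.8 and 22.4, 70.0 and 71.1, and 37.0 and 62.7 in the same order. The Marc1 libraries did not overlap, while for Sem1 an untreated library (32.4) lay above a TNFa+BMP4 library (26.9).

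The 6 members of smallest p on the lower side with BMP4 lay near Gpc1, Wdr26, 1700036G14Rik, Hhat, Rad23b and Rflna, with average effects from -1.36 to -1.07. Gpc1 encodes a heparan sulphate proteoglycan of the cell surface, and the window at -44311 bp gave 147 and 258 untreated, 95.9 and 123 under TNFa, 52.3 and 105 under BMP4, and 32.9 and 51.5 under both. Rad23b encodes a DNA repair protein, and the window at -19900 bp gave 91.5 and 69.8, 128 and 103, 52.3 and 39.9, and 43.8 and 42.5 in that order. The Rad23b, Wdr26 and 1700036G14Rik libraries did not overlap, whereas those of Gpc1, Hhat and Rflna did. The E2f6 window printed above gave 137 and 69.8, 165 and 124, 32.2 and 56.8, and 54.8 and 105, which overlap.

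**Figure D5:**
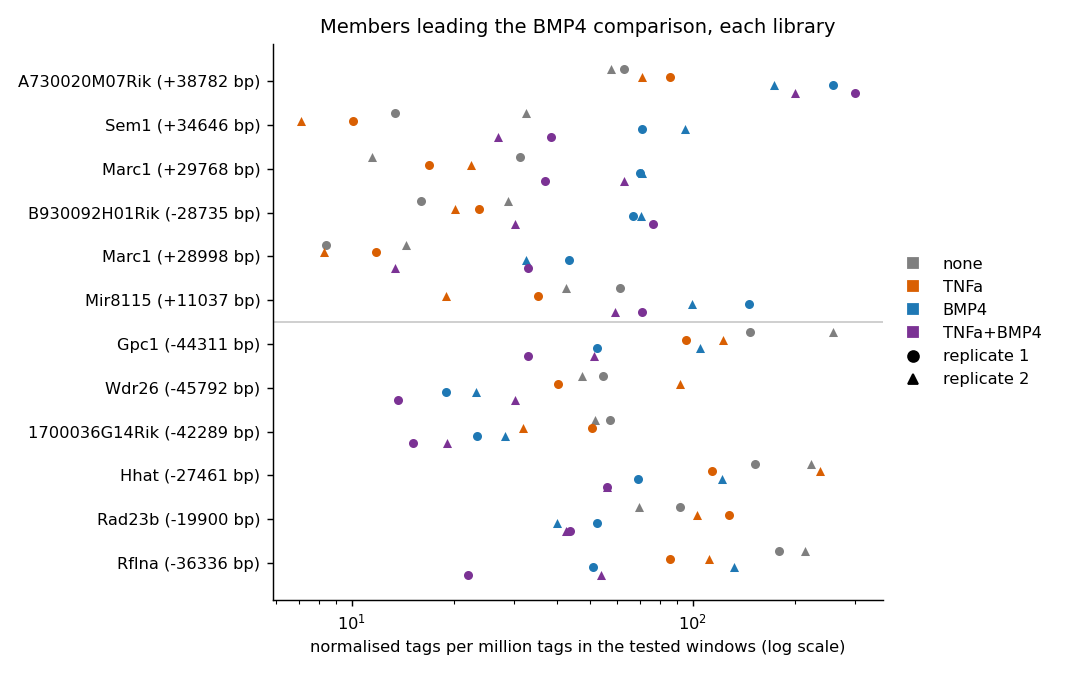
Level in CPM (log axis) in each library for the 6 members of smallest p on the higher side (above the line) and the 6 on the lower side (below it) with BMP4; colours are the groups and symbols the replicates. In the A730020M07Rik window the blue and purple points run from 173 to 299 and the others from 57.6 to 85.8.

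The BMP and SMAD list had 22 members at 11 genes, 13 of them above 0 for BMP4 with a median of 0.29 beside -0.01 over all members and all windows. Unadjusted p was under 0.05 for 4 higher and 0 lower, 3 members had all BMP4 libraries higher and 1 all lower. Over all tested windows the shares were 1.11% for p in either direction, 0.761% for all BMP4 libraries higher and 0.877% for all lower. The median ran from 0.16 (without TNFa replicate 2) to 0.39 when each library was left out in turn, and was 0.19 without BMP4 replicate 1. For TNFa the same members had a median of 0.01.

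Id3 encodes a protein that blocks basic helix-loop-helix factors and is a direct BMP target, and it had 4 members from -20282 to -3316 bp. The window at -8649 bp gave 35.3 and 20.9 untreated, 47.1 and 13 under TNFa, 207 and 49.3 under BMP4, and 147 and 70.5 under both, a BMP4 average effect of 1.88 ± 0.60. Its neighbour at -9038 bp gave 1.58 ± 0.55 and the other 2 gave 0.59 and -0.28. The BMP4 libraries were all higher at -8649 bp, and the Id3 promoter window at -119 bp gave 1.57 ± 0.36.

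Id2, a gene of the same family, had a window at -2833 bp with 58.8 and 28.8 untreated, 32.0 and 35.4 under TNFa, 74.5 and 68.6 under BMP4, and 69.8 and 98.5 under both, without overlap. Sp7, the osteoblast factor osterix, had a window at -10032 bp with 49.5 and 13.7, 42.1 and 10.6, 117 and 31.2, and 97.2 and 62.7 in that order, a BMP4 average effect of 1.45 ± 0.63 with overlapping libraries. Id1 had members at -9326 and 5309 bp with average effects of 0.61 and 0.07, beside 1.00 ± 0.44 at its promoter window. The Smad7 windows at 37707 and 38489 bp, near the gene of an inhibitory SMAD, had -0.15 and 0.20.

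The YAP and TEAD list, genes of the Hippo pathway, had 6 members at 4 genes with a BMP4 median of 0.61. In 2 of them all BMP4 libraries were higher without overlap, beside 0.761% of all tested windows. The window at -35296 bp of Ccn1, a matricellular protein gene, gave 95.7 and 82.8 untreated, 97.6 and 104 under TNFa, 172 and 154 under BMP4, and 205 and 244 under both, an average effect of 1.00 ± 0.33. The window at -41335 bp of Frmd6, an upstream Hippo component, gave 26.9 and 18.7, 10.1 and 29.5, 31.1 and 78, and 46.6 and 81.7 in that order, an average effect of 1.39 ± 0.48. Further Ccn1 windows of the list, at 31438 and -3406 bp, had BMP4 average effects of 0.57 and 0.65. The windows of Ankrd1 and Lats2 went the other way, with -0.49 and -0.33, so the median rests largely on Ccn1. When BMP4 was added to TNFa, a window at 6343 bp of Sgk1, a kinase gene, went from 28.6 and 30.7 to 65.7 and 72.7. For the osteoblast list the BMP4 median was -0.11 with 8 of 20 above 0, and for Wnt pathway genes (6 members) it was -0.06.

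Members close to each other gave similar values and members of distant sites did not. Among 292 neighbouring pairs with at most 1000 bp between them, the TNFa average effects had a Pearson r of 0.50 and the same sign in 71.9%, and the BMP4 average effects an r of 0.59. For 140 pairs at 1000 to 5000 bp r was 0.16 and 0.13, and for 294 pairs at 5000 to 20000 bp 0.08 and 0.11. Adjacent windows can be parts of one accessible site, and all points share the same 8 libraries.

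A member and the promoter of its nearest gene were nearly unrelated in these differences. Over 814 members whose nearest gene had a matched promoter window, r was 0.11 for TNFa and 0.08 for BMP4, with the same sign in 52.9% and 49.3%. Ccl2 and Gdnf were of this kind for TNFa, and the Id3 windows at -9038 and -8649 bp were not for BMP4. Snai1, a gene of a mesenchymal transcription factor, had a promoter window at -80 bp with a BMP4 average effect of 1.37 ± 0.37, while its members at 32253 and 36861 bp had 0.40 and 0.08.

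Genes with 2 members free of overlap for TNFa were Bnc1, Ccl2, Gdnf, Gm5627 and Rassf6 on the higher side and Gm13710 and Kcna6 on the lower side. For BMP4 they were A630001O12Rik, Gm19299 and Spon2, an extracellular matrix gene, all 3 on the lower side. Their average effects ran from 1.03 (Gm5627) to 2.26 (Gdnf), from -1.48 to -0.79 (Kcna6) and from -0.92 (Gm19299) to -0.34 (Spon2). These genes were found by going through the values and are given as a description.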

How the data were processed

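The authors deposited 1 peak list per group, each with 125 bp windows annotated by HOMER 4.11 on mm10, and the submitters' processing notes also name Trimmomatic 0.39, Bowtie2 2.5.1, Picard 2.25.1 and deepTools 3.5.1. The deposited sample columns are headed as tag counts per the file headers, but they hold log2 values shrunken by a regularised logarithm. The deposited p-value and adjusted p-value columns compare each group with sonicated DNA, as does the authors' log2 fold, and were used here only to describe windows. Tag counts were recovered per list by solving the rlog equation with 4 fitted constants: 99.94%, 99.99%, 99.32% and 100.0% of values (none, TNFa, BMP4, TNFa+BMP4) came out within 0.1 of a whole number. In 2914 windows with the same coordinates in the 4 lists the background counts were equal in 100.0%. The sources used here do not say how each list was called from its libraries.

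Windows with at least 10 tags in at least 2 libraries and 15 in all were tested (14712, of them 2392 members). log2(count/scale factor + 2), scaled by trimmed means of M values (30% and 5% trimmed), was fitted with limma 3.58.1 (R 4.3.3), trend on, group as the only term, all 8 libraries, two-sided, Benjamini-Hochberg over all windows. Differences are on that log2 scale, which understates changes of low windows. The recovery of tag counts and the limma fit were tested on simulated data.

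The members and the 18 gene lists were chosen with earlier results of these data known. Windows named by rule are the up to 6 per direction of smallest p in each comparison and the 10 highest. The rule also names, per list and cytokine, up to 3 windows of largest absolute average effect. It adds those with a kB or AP-1 match, the nearest, the farthest and the gene with most members. Other windows were chosen later, with their values known. Among these are the windows of Ccl5, Id2 and Smad7, the Ccl2 window at -23633 bp and the Nfkbia window at 27682 bp. Gene lists were matched by Entrez ID through the RefSeq table. Counting error was not modelled apart from the spread between libraries, and alternatives are given at the end. Some windows that the rule names are not reported here.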

Additional observations from a re-analysis of the deposited data

How the results depend on the processing

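No member was called under 22 of the 23 alternatives of the TNFa average effect and under any alternative of the other 7 comparisons. With a replicate block, 33 members passed for the TNFa average effect, 23 higher and 10 lower (1.38% of members, beside 0.829% of all windows), led by the Pdgfb window (adjusted p = 0.0112 by limma) and including both Gdnf and both Rassf6 windows. The replicate numbers are not said to mark a shared culture or day. The differences between first and second replicates correlated across members by 0.20 to 0.78 between groups. The block left every other count of calls at 0. The median TNFa average effect of the NF-kB list ran from 0.48 (windows matched within 31 bp) to 1.26 (members within 10 kb) and was 1.15 at a mean count of at least 30. That of the BMP and SMAD list for BMP4 ran from 0.16 (without TNFa replicate 2) to 0.64 (identical coordinates) and was 0.49 at that mean count. No window named in a comparison changed sign under any alternative run. These windows were chosen for small p in the same libraries, so nothing is concluded from the unchanged sign. Their sizes moved: for TNFa against none the 4930447M23Rik window ran from -3.48 (without TNFa replicate 2) to -1.07 (without TNFa replicate 1). Counts of members without overlap rise when a library is left out, since fewer libraries must be ordered (with TNFa up to 137 higher without TNFa replicate 2 and 194 lower without BMP4 replicate 1; with BMP4 up to 91 and 105 without BMP4 replicate 2) and fall with smaller sets. Chosen after seeing the data, thinning gave 67 and 87 for TNFa. With total tags the replicate counts became 542 and 99. The planned motif search over all members was not run, as no genome of this build was used here.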

Other observations

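The 41 members that overlap a RefSeq tRNA gene had a median level of 58.6 CPM, beside 44.1 for members in no RefSeq gene, and in the authors' deposited table a median log2 fold over sonicated DNA of 4.82 beside 4.05 in the untreated list. Their median was 53.7 and 31.7 in the untreated libraries, 72.4 and 44.9 under TNFa, 54.5 and 31.8 under BMP4, and 65.7 and 53.7 under both, so the first replicate was higher in all 4 groups. By replicate number 3 of the 41 were higher and 8 lower without overlap, beside 176 and 199 of the 1733 tested members in no RefSeq gene. Over all tested windows these replicate shares were 10.0% and 11.4%. None of the 41 was free of overlap for TNFa or BMP4. Among the 1733 there were 59 higher and 72 lower for TNFa and 21 and 25 for BMP4. Over all tested windows the shares were 1.80% and 2.63% for TNFa and 0.761% and 0.877% for BMP4. At such shares very few of 41 windows would be free of overlap, and the difference was not tested. tRNA genes have near-identical copies, and the sources used here do not say how reads that match several were counted.

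The gene with most members was Socs3, which encodes a feedback inhibitor of cytokine signalling, with 8 windows from -6863 to 29462 bp. Their TNFa average effects ran from -0.33 to 0.98, 5 above 0, and their BMP4 average effects from -1.05 to 0.28, 4 above 0. The window at 29462 bp gave 65.5 and 72.0 untreated, 57.2 and 36.6 under TNFa, 27.8 and 35.5 under BMP4, and 24.6 and 34.7 under both, the BMP4 libraries being lower without overlap. Ccnd1, the cyclin D1 gene, had 5 members, all 5 above 0 for TNFa (0.21 to 0.69), and Prelp, a matrix proteoglycan gene, had 5, none above 0 (-0.75 to -0.01). These were picked after their values were seen.

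Within 10000 bp of a RefSeq miRNA hairpin lay 45 members. Those given here were picked after their values were seen, and other members near a hairpin had average effects of the opposite sign. The 3 at Mir23a, the first hairpin of a cluster with Mir27a and Mir24-2, had BMP4 average effects of 0.73, 0.50 and 0.12, and the one at Mir30a had a TNFa average effect of 1.38, with 36.1 and 7.92 untreated, 74.1 and 35.4 under TNFa, 33.4 and 10.6 under BMP4, and 60.3 and 41.4 under both, where an untreated library lay above a TNFa library.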
